A study of Mus musculus with 9 samples.

Results

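The 35 genes described here encode glycolytic enzymes, glucose and lactate transporters, and genes of the response to low oxygen. They were chosen by name, and 36 of the 53801 genes of the count table carried 1 of these symbols, because Aldoa has a second annotated gene with 0 to 6 counts that was left aside. Of the 35 genes, 34 passed the filter on low counts and were tested among 12538 protein-coding genes. Adm, a vasodilator peptide gene induced by low oxygen, did not pass it and had 2 to 11 counts in a library.

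The RNA came from CD11b+ cells, the myeloid fraction that includes microglia and infiltrating monocytes and macrophages, sorted from tumour-bearing hemispheres of C57BL/6J mice that carried GL261 gliomas, labelled with luciferase and tdTomato, in the right striatum. The mice were male, 10 to 12 weeks old when the study began and allocated to the groups at random. CTR mice (2 libraries) received saline by gavage, OAT-1746 mice (2 libraries) received the oral arginase inhibitor OAT-1746 at 50 mg/kg by gavage, 2 times a day from day 1, anti-PD-1 mice (2 libraries) received an antibody against the PD-1 checkpoint receptor at 2.5 mg/kg by intraperitoneal injection on several days, and COMB mice (3 libraries) received both agents. The methods place collection on day 28 after implantation and a legend places it on day 21, and both are stated here because neither could be settled. For anti-PD-1 replicate 2 the treatment reads anti-PD-2, and that library was grouped by its title. The libraries held 13048075 to 18796479 counts.

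Glycolysis splits glucose into pyruvate in the cytosol. Hexokinases and phosphofructokinases spend ATP in the upper part, the enzymes from aldolase to pyruvate kinase recover it in the lower part, and lactate dehydrogenase turns pyruvate into lactate, which leaves through monocarboxylate transporters. The transcription factor HIF-1, whose alpha subunit is marked for destruction by oxygen-dependent prolyl hydroxylases, raises many of these genes when oxygen is low, and inflammatory activation of macrophages can do so as well.

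2 libraries stood apart from the others of their group in these genes. The summed level of Aldoa, Tpi1, Gapdh, Pgk1, Pgam1, Eno1, Pkm and Ldha, a sum formed with the values known, was 6165 and 5927 CPM (read counts scaled to library size by TMM) in CTR, 4539 and 2025 CPM in OAT-1746, 5547 and 6320 CPM in anti-PD-1 and 5230, 10450 and 9914 CPM in COMB. OAT-1746 replicate 2 was far below OAT-1746 replicate 1, and COMB replicate 1 lay somewhat below the CTR libraries while COMB replicates 2 and 3 lay far above them. The same 2 OAT-1746 libraries were unlike each other in other genes too: a list of 12 monocyte and macrophage markers summed to 9623 CPM in replicate 1 and 1940 CPM in replicate 2. In a bulk library, fewer cells of a type and less RNA per cell cannot be told apart.

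**Figure D1:**
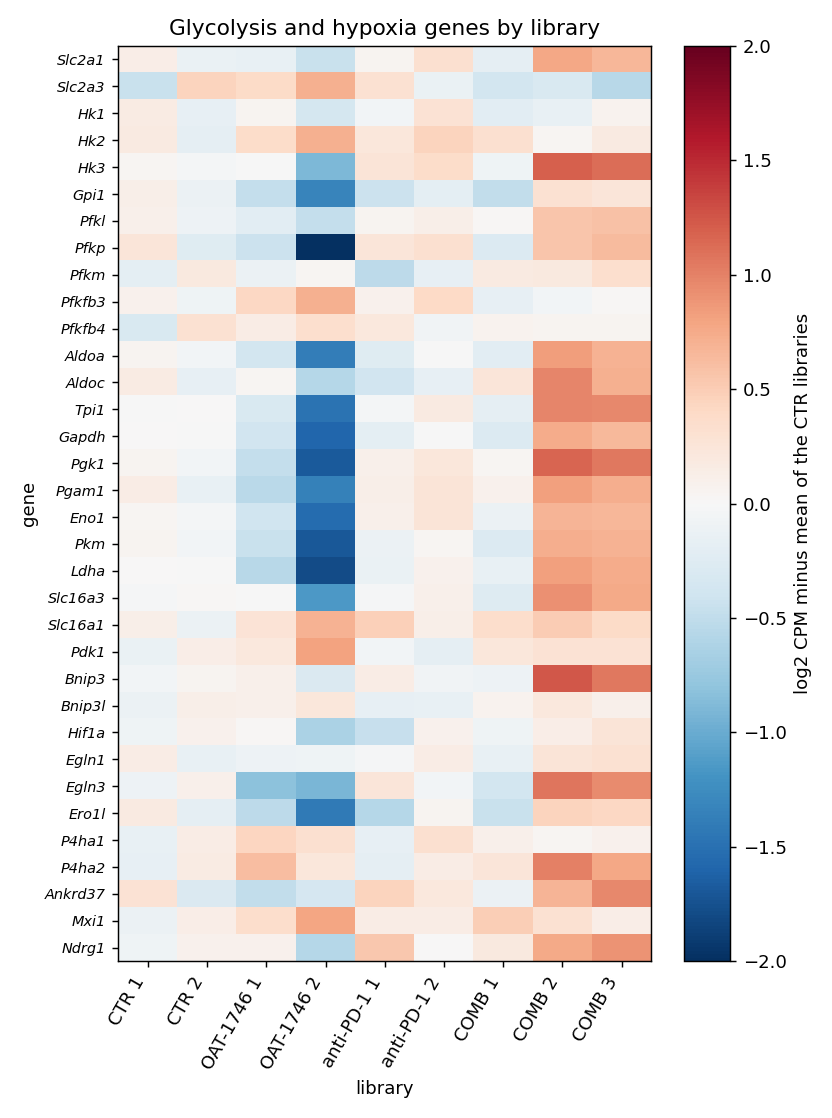
Each row is 1 of the 34 tested genes, each column 1 library, and the colour is the log2 CPM minus the mean of the 2 CTR libraries. Most lower-glycolysis enzymes are blue in OAT-1746 replicate 2 and red in COMB replicates 2 and 3, while COMB replicate 1 is near white.

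The comparison of COMB with OAT-1746, which asks what the antibody added to the inhibitor, held the only members called by the edgeR quasi-likelihood test at an adjusted p under 0.05. In it 12 of 34 members (35.3%) passed, beside 15.8% of all tested genes, and DESeq2 called 21 members beside 24.4%. By the unadjusted p, 22 members (64.7%) were under 0.05, beside 37.1% of genes. Of the 12 called by edgeR, 10 were higher in COMB (29.4% of members, beside 6.84% of genes), and 2 were lower (5.88%, beside 8.94%). The median log2 fold change of the members was 0.88, and that of all tested genes was 0.00. By role, the medians were 1.26 for 18 glycolytic enzymes (15 with higher estimates), 0.34 for 4 transporters, 0.29 for 9 HIF targets and 0.38 for 3 oxygen-sensing genes. The edgeR count rested on single libraries, and so did the share of all genes called. It was 0 without OAT-1746 replicate 2, without COMB replicate 2 and without COMB replicate 3, beside 0.21%, 0.112% and 0.04% of genes. It was 2 without CTR replicate 1 or CTR replicate 2 (Pgam1 and Slc2a3, beside 5.68% and 6.28%) and 2 without anti-PD-1 replicate 1 or anti-PD-1 replicate 2 (Pgam1 and Pgk1, beside 6.67% and 7.18%), counts at that background. Without COMB replicate 1 it was 20 beside 23.4% of genes, and without OAT-1746 replicate 1 it was 21 beside 31.4%. The median was 0.60 without OAT-1746 replicate 2 and 1.05 without OAT-1746 replicate 1.

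**Figure D2:**
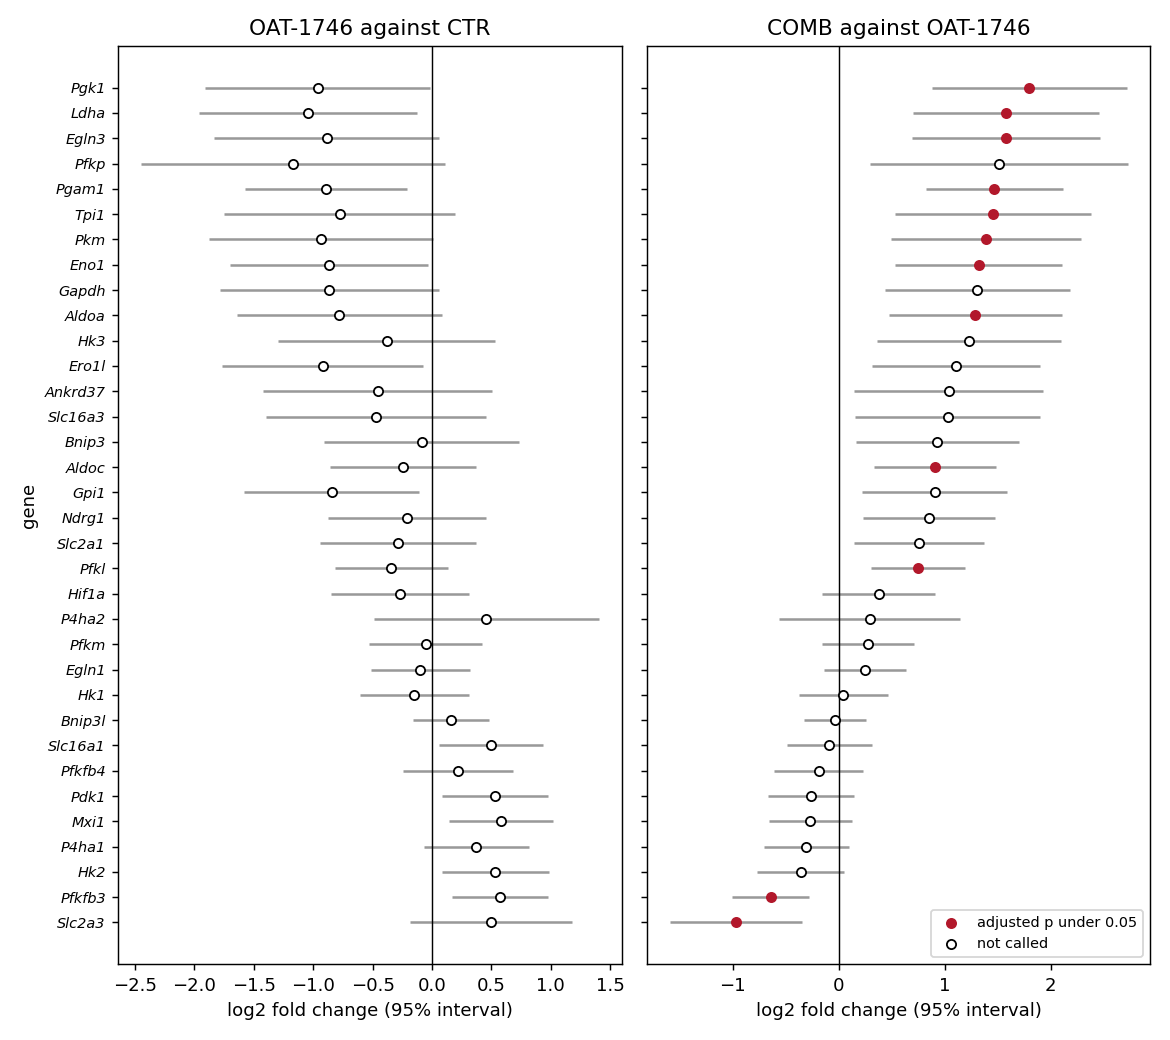
Points are edgeR log2 fold changes of the 34 tested genes and lines their 95% intervals, for OAT-1746 against CTR on the left and COMB against OAT-1746 on the right. The filled points are the 12 genes called, 10 to the right of 0 and 2 to the left; none is filled on the left panel.

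The steps from aldolase to lactate dehydrogenase gave 8 of the 10 higher genes. Pgk1, phosphoglycerate kinase, which makes the first ATP of the lower part, stood at 157 and 145 CPM in CTR, 108 and 46.8 in OAT-1746, 162 and 177 in anti-PD-1 and 155, 338 and 315 in COMB. It was lowest in both OAT-1746 libraries and highest in COMB replicates 2 and 3, with no overlap between COMB and OAT-1746 (log2 fold change 1.80 ± 0.41 (SE), edgeR adjusted p = 0.0298). Pgam1, phosphoglycerate mutase, stood at 89.8 and 73.0 CPM in CTR, 55.9 and 31.6 in OAT-1746, 87.8 and 97.1 in anti-PD-1 and 86.3, 142 and 135 in COMB. It had the smallest p of the members in that comparison (log2 fold change 1.47 ± 0.29 (SE), edgeR adjusted p = 0.0242), and every COMB library was above both OAT-1746 libraries. The log2 fold changes without OAT-1746 replicate 2, without OAT-1746 replicate 1 and without COMB replicate 1 were 1.33, 2.53 (called) and 2.04 (called) for Pgk1; and 1.13, 1.94 (called) and 1.63 (called) for Pgam1, where (called) marks an edgeR adjusted p under 0.05.

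Ldha, the lactate dehydrogenase subunit that favours lactate, stood at 705 and 692 CPM in CTR, 473 and 203 in OAT-1746, 636 and 738 in anti-PD-1 and 629, 1236 and 1168 in COMB. COMB replicate 1 was below both CTR libraries and still above both OAT-1746 libraries (log2 fold change 1.58 ± 0.39 (SE), edgeR adjusted p = 0.0347). Tpi1, triose phosphate isomerase, stood at 407 and 407 CPM in CTR, 329 and 146 in OAT-1746, 395 and 459.9 in anti-PD-1 and 358, 799 and 791 in COMB. COMB replicate 1 lay below both CTR libraries and nearer to OAT-1746 replicate 1 than to the other COMB libraries (log2 fold change 1.45 ± 0.41 (SE), edgeR adjusted p = 0.0445). With the same 3 libraries left out 1 at a time (without OAT-1746 replicate 2, without OAT-1746 replicate 1 and without COMB replicate 1), they were 1.10, 2.32 (called) and 1.80 (called) for Ldha; and 0.99, 2.16 (called) and 1.71 (called) for Tpi1.

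Aldoa, the main aldolase of these cells, stood at 1169 and 1095 CPM in CTR, 881 and 436 in OAT-1746, 956 and 1125 in anti-PD-1 and 982, 2020 and 1824 in COMB. Its order of libraries matched that of Pgk1 at both ends (log2 fold change 1.29 ± 0.36 (SE), edgeR adjusted p = 0.0443). Eno1, enolase 1, stood at 618 and 591 CPM in CTR, 457 and 207 in OAT-1746, 647 and 723 in anti-PD-1 and 557, 969 and 959.5 in COMB. Pkm, pyruvate kinase, stood at 1414 and 1324 CPM in CTR, 1008 and 422 in OAT-1746, 1263 and 1404 in anti-PD-1 and 1134, 2267 and 2207 in COMB. For both, COMB and OAT-1746 did not overlap (log2 fold change 1.32 ± 0.35 (SE), edgeR adjusted p = 0.0396 for Eno1, and log2 fold change 1.39 ± 0.40 (SE), edgeR adjusted p = 0.0461 for Pkm). Gapdh, glyceraldehyde phosphate dehydrogenase and a common reference gene in PCR, stood at 1605 and 1600 CPM in CTR, 1227 and 533 in OAT-1746, 1401 and 1596 in anti-PD-1 and 1329, 2681 and 2515 in COMB. It just missed the threshold (log2 fold change 1.31 ± 0.39 (SE), edgeR adjusted p = 0.0503), and its levels differed by 5.03 times between the lowest and the highest library. Aldoc, a second aldolase, was far lower per length, at a mean of 12.3 CPM per kb of exon in CTR beside 388.8 for Aldoa. It stood at 44.8 and 35.6 CPM in CTR, 41.0 and 26.8 in OAT-1746, 30.6 and 35.8 in anti-PD-1 and 47.2, 78.3 and 65.6 in COMB and was highest in COMB replicates 2 and 3, with COMB replicate 1 still above both OAT-1746 libraries (log2 fold change 0.91 ± 0.26 (SE), edgeR adjusted p = 0.0440). Fold changes without OAT-1746 replicate 2, without OAT-1746 replicate 1 and without COMB replicate 1 were 0.88, 1.89 (called) and 1.51 (called) for Aldoa; 0.87, 2.00 (called) and 1.50 (called) for Eno1; 0.90, 2.15 (called) and 1.61 (called) for Pkm; 0.84, 2.03 (called) and 1.53 (called) for Gapdh; and 0.65, 1.25 (called) and 1.05 (called) for Aldoc.

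Several of these genes have many near-identical processed pseudogenes, above all Gapdh, Pgk1, Tpi1, Ldha, Pgam1, Eno1, Pkm and Aldoa. Reads that could not be placed were dropped by the mapping quality minimum of 10, so their levels are uncertain by an amount that was not measured.

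Promoter sequence was examined because many of these genes are known HIF targets. RefSeq promoters on GRCm38.p6, from 250 bases before to 50 after the start, were found for 32 of the 35 genes. ACGTG, the core that HIF binds, was present on either strand in 59.6% of the 47 member promoters, beside 19.6% of all 32851 promoters. GCGTG was present in 55.3% beside 32.4%, either one in 83% beside 43.8%, and CACGTG, an E-box that contains ACGTG, in 12.8% beside 7.15%. Many members were listed as HIF targets, so the shares describe the list, and a match is not a binding site. The promoters of the 3 higher genes with the smallest p and of the lower gene with the smallest p are shown, the first in the table where a gene has several, 5′ to 3′ on the gene's strand, with ACGTG and GCGTG and their reverse complements in capitals, at chrX:106186850-106187149 (+), chr7:46845554-46845853 (+), chr19:41911621-41911920 (+) and chr2:11553880-11554179 (-):
Pgk1: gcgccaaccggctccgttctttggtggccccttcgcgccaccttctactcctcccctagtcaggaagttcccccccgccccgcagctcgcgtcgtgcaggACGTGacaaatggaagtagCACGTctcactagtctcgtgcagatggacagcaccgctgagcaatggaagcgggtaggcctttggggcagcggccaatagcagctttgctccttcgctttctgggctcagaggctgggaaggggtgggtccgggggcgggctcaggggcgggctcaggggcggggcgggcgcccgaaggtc
Ldha: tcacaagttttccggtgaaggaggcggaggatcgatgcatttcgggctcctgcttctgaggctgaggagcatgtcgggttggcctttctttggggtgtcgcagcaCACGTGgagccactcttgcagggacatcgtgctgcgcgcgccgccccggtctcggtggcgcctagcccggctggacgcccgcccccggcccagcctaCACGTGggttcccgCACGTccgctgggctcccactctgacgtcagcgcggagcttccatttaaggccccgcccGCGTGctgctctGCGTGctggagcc
Pgam1: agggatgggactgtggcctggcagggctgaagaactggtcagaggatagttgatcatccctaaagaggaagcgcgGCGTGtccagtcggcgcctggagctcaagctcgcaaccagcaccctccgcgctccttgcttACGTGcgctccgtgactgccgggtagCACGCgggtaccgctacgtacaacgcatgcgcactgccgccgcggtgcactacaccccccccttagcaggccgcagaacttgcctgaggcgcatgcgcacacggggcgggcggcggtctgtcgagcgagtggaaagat
Pfkfb3: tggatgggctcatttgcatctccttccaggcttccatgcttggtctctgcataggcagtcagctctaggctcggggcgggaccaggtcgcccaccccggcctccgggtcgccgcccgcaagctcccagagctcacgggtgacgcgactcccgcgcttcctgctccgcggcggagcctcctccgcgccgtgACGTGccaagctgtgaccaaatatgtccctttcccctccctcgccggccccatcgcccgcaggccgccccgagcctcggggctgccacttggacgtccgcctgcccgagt
Counting both strands, so that CACGTG counts 2 times, the Ldha window held 7 such cores, Pgam1 3, Pgk1 2 and Pfkfb3, which was lower in COMB than in OAT-1746, 1. The second Ldha promoter held 2 GCGTG and no ACGTG and the second Pfkfb3 promoter 2 ACGTG and 2 GCGTG, so these counts depend on the promoter shown.

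**Figure D3:**
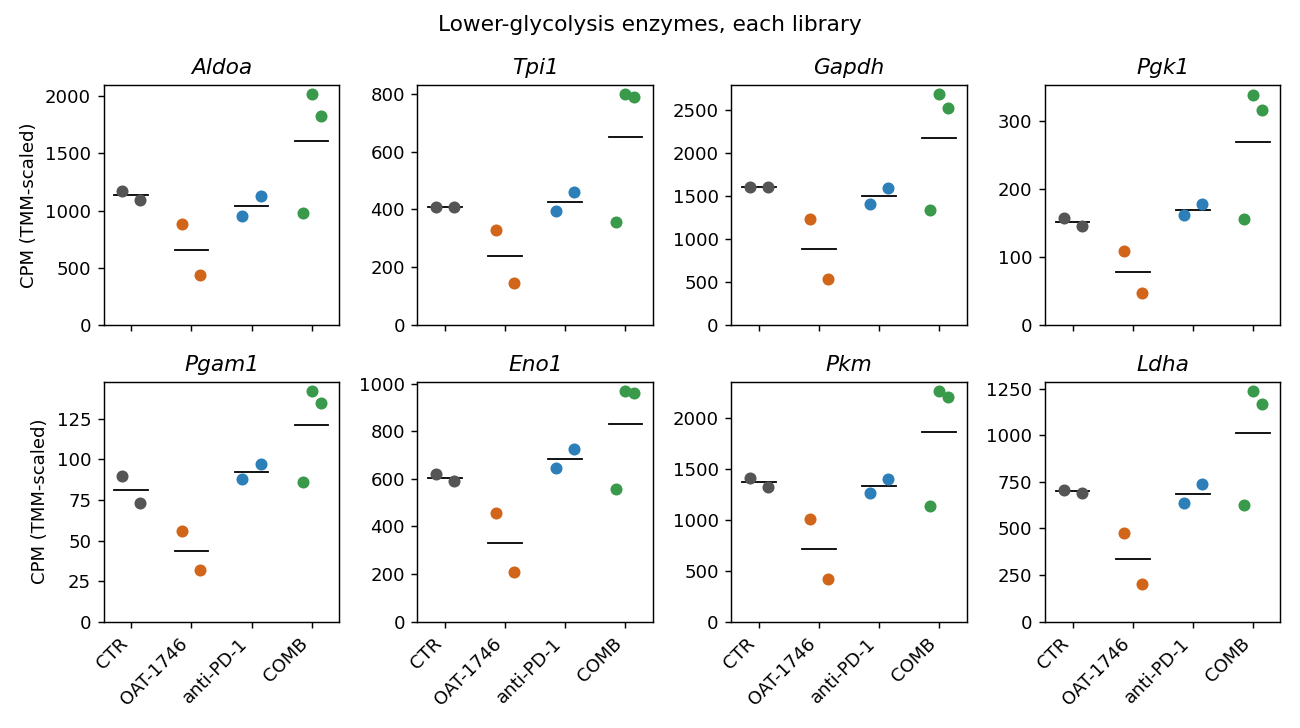
Points are the CPM of 8 lower-glycolysis genes in each library, grouped by treatment on a linear axis from 0, and the bars are group means. In every panel the lowest point is OAT-1746 replicate 2 and the 2 highest are COMB replicates 2 and 3, while COMB replicate 1 lies near the CTR points.

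Glucose entry and the upper steps were less uniform. Slc2a1, the main glucose transporter of these cells, stood at 255 and 214 CPM in CTR, 212 and 172 in OAT-1746, 243 and 290.5 in anti-PD-1 and 207, 399 and 369 in COMB. COMB replicate 1 fell between the OAT-1746 libraries, so the groups overlapped, and the gene was not called (log2 fold change 0.76 ± 0.27 (SE), edgeR adjusted p = 0.0800). Slc2a3, a high-affinity glucose transporter known best from neurons, went the other way at 6.67 and 12.3 CPM in CTR, 11.8 and 15.0 in OAT-1746, 11.3 and 8.23 in anti-PD-1 and 7.05, 7.33 and 6.17 in COMB. Its 3 COMB libraries lay below both OAT-1746 libraries (log2 fold change -0.97 ± 0.28 (SE), edgeR adjusted p = 0.0453), and CTR replicate 1 was as low as COMB. The values without OAT-1746 replicate 2, without OAT-1746 replicate 1 and without COMB replicate 1 were 0.63, 0.92 and 0.97 (called) for Slc2a1; and -0.77, -1.13 (called) and -1.02 for Slc2a3.

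Hk2, the inducible hexokinase, stood at 275 and 214 CPM in CTR, 312 and 396 in OAT-1746, 283 and 329.8 in anti-PD-1 and 303, 248 and 276 in COMB. Both OAT-1746 libraries were above both CTR libraries, but the gene was called in no comparison (log2 fold change 0.53 ± 0.20 (SE), edgeR adjusted p = 0.113 for OAT-1746 against CTR). Pfkl, the liver-type phosphofructokinase, stood at 166 and 144 CPM in CTR, 133 and 111 in OAT-1746, 159.9 and 168 in anti-PD-1 and 156, 226 and 232 in COMB. Every COMB library was above both OAT-1746 libraries, and the gene was called higher (log2 fold change 0.75 ± 0.20 (SE), edgeR adjusted p = 0.0393). Pfkp, the platelet-type enzyme, stood at 149.5 and 106 CPM in CTR, 93.1 and 20.7 in OAT-1746, 148 and 158 in anti-PD-1 and 105, 186 and 195 in COMB. Its lowest value, in OAT-1746 replicate 2, was 9.43 times under its highest, and it was not called (log2 fold change 1.51 ± 0.54 (SE), edgeR adjusted p = 0.0796). Pfkfb3, which makes the activator of phosphofructokinase, stood at 200.3 and 178 CPM in CTR, 252 and 310.3 in OAT-1746, 200.3 and 248 in anti-PD-1 and 168, 182 and 191 in COMB. Both OAT-1746 libraries were the highest of the 9, and the gene was lower in COMB (log2 fold change -0.64 ± 0.16 (SE), edgeR adjusted p = 0.0364). In COMB against OAT-1746, the log2 fold changes without OAT-1746 replicate 2, without OAT-1746 replicate 1 and without COMB replicate 1 were 0.64, 0.88 (called) and 0.88 (called) for Pfkl; 0.81, 2.97 (called) and 1.71 for Pfkp; and -0.47, -0.78 (called) and -0.62 (called) for Pfkfb3. For Hk2 in OAT-1746 against CTR they ran from 0.35 without CTR replicate 2 to 0.73 without CTR replicate 1, with 0.69 (called) without OAT-1746 replicate 1.

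Shares within families differed between libraries for the hexokinases and phosphofructokinases, while Aldoa held 94.8% to 97.2% of the aldolase level in every library. Per kb of exon, Hk2 made up 56.5% of the hexokinase level in OAT-1746 replicate 2, 36.5% in OAT-1746 replicate 1 and 17.5% and 19.9% in COMB replicates 2 and 3. Hk3, the hexokinase of myeloid cells, held 79.1% and 76.1% in those 2 COMB libraries and 37.5% in OAT-1746 replicate 2. COMB replicate 1, at 37.4% Hk2, was like OAT-1746 replicate 1. Both were near the CTR libraries (32.9% and 29.0%) and the anti-PD-1 libraries (30.8% and 32.1%). Pfkp held 7.16% of phosphofructokinase in OAT-1746 replicate 2 and 22.4% to 29.7% in the other libraries.

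**Figure D4:**
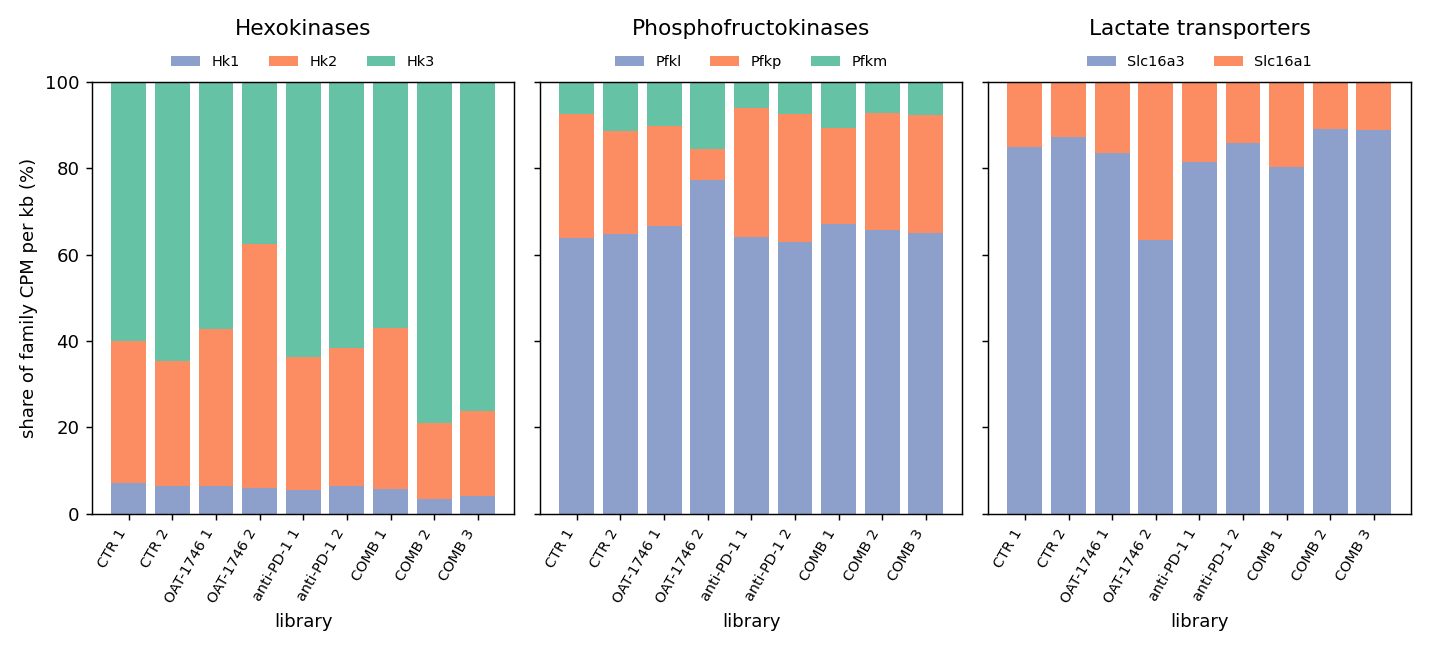
Bars give, for each library, the share of each gene in the summed CPM per kb of its family, for 3 hexokinases, 3 phosphofructokinases and 2 lactate transporters. OAT-1746 replicate 2 has the largest Hk2 share, 56.5%, and the smallest Pfkp share, 7.16%.

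Slc16a3, the monocarboxylate transporter of glycolytic cells, is 1 of 2 lactate transporter genes among the members. It made up 63.5% to 89.2% of the summed CPM per kb of these 2. It stood at 207 and 215 CPM in CTR, 209 and 95.3 in OAT-1746, 209 and 226 in anti-PD-1 and 176, 399 and 356 in COMB. COMB replicate 1 was below OAT-1746 replicate 1, so the groups overlapped, and the gene was not called (log2 fold change 1.03 ± 0.39 (SE), edgeR adjusted p = 0.0909). Fold changes without OAT-1746 replicate 2, without OAT-1746 replicate 1 and without COMB replicate 1 were 0.58, 1.71 (called) and 1.27 (called) for Slc16a3. Slc16a1, a related transporter, ranged from 26.2 to 45.7 CPM and made up 36.5% of the pair per kb in OAT-1746 replicate 2, beside 10.8% to 19.7% in the other libraries.

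Among the oxygen-sensing genes, Hif1a, the HIF-1 alpha subunit, stood at 310.4 and 348 CPM in CTR, 333 and 213 in OAT-1746, 238 and 348 in anti-PD-1 and 309, 361 and 391 in COMB. Its mRNA was lowest in OAT-1746 replicate 2 and within 1.84 times across all libraries, and it was not called (log2 fold change 0.38 ± 0.24 (SE), edgeR adjusted p = 0.276). The HIF-1 alpha protein was not analysed here. Egln3, a prolyl hydroxylase that HIF itself induces, stood at 6.97 and 8.00 CPM in CTR, 4.19 and 3.89 in OAT-1746, 8.85 and 7.16 in anti-PD-1 and 5.79, 15.9 and 14.5 in COMB. It was called higher in COMB than in OAT-1746 (log2 fold change 1.58 ± 0.39 (SE), edgeR adjusted p = 0.0360) at a low level, with both OAT-1746 libraries lowest and COMB replicates 2 and 3 highest. Log2 fold changes without OAT-1746 replicate 2, without OAT-1746 replicate 1 and without COMB replicate 1 were 0.10, 0.74 (called) and 0.43 for Hif1a; and 1.53, 1.64 (called) and 1.88 (called) for Egln3. Egln1, the main oxygen-sensing hydroxylase, ranged from 61.3 to 84.1 CPM.

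By edgeR, none of the 9 tested HIF target genes was called in COMB against OAT-1746, beside 15.8% of all genes. There 5 had higher and 4 lower estimates, and 4 were under 0.05 before adjustment (beside 37.1% of all genes). Bnip3, Ero1l and Ndrg1 passed in DESeq2 (beside 24.4%). Without COMB replicate 1, edgeR called Ankrd37, Bnip3, Ero1l and Ndrg1, beside 23.4% of all genes. Pdk1, the kinase that keeps pyruvate out of the citrate cycle, stood at 65.2 and 79.0 CPM in CTR, 83.3 and 125 in OAT-1746, 68.8 and 63.2 in anti-PD-1 and 84.0, 88.0 and 87.8 in COMB, highest in OAT-1746 replicate 2. Bnip3, a mitophagy receptor, ranged from 31.6 to 92.5 CPM with COMB replicates 2 and 3 at the top. The other tested HIF targets ranged by 1.31 times for Bnip3l, 1.52 for P4ha1, 1.88 for Mxi1, 2.40 for P4ha2, 2.77 for Ndrg1, 2.87 for Ankrd37 and 3.65 for Ero1l. Of the enzymes not yet given, Hk1 ranged by 1.55 times, Pfkfb4 by 1.56, Pfkm by 1.82, Gpi1 by 3.11 and Hk3 by 4.26.

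Against CTR, OAT-1746 had lower estimates for 24 of the 34 members, with a median log2 fold change of -0.28 beside 0.01 over all genes. Among the 18 glycolytic enzymes 15 estimates were lower, with a median of -0.78, and for the 9 HIF targets the median was 0.16. No member was called by edgeR, and 0% of all genes were. By the unadjusted p, 11 members (32.4%) were under 0.05, beside 32.3% of genes, so their share was that of the background. DESeq2 called 2, Pgam1 and Pfkfb3, beside 15.7% of genes. 15 members had both OAT-1746 libraries below both CTR libraries (44.1%, beside 32.1% of genes) and 7 had both above (20.6%, beside 30.8%). Without OAT-1746 replicate 1, which leaves replicate 2 alone in the group, edgeR called 16 members beside 28.2% of all genes. The median was -0.53 without that library and -0.05 without OAT-1746 replicate 2. For Ldha the log2 fold change was -1.05, with a 95% interval of -1.97 to -0.13; it was -0.55 without OAT-1746 replicate 2 and -1.79 (called) without OAT-1746 replicate 1.

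No member was called against CTR in either group that received the antibody. In anti-PD-1 against CTR the count was 0 by edgeR, 0 at an unadjusted p under 0.05 and 0 by DESeq2, beside 0%, 5.12% and 0.112% of genes. Estimates were small, with a median of 0.06 beside 0.02 over all genes. In COMB against CTR, the count was 0 by edgeR, 4 at an unadjusted p under 0.05 (Aldoc, Bnip3, Ndrg1 and Slc16a1) and 0 by DESeq2, beside 0%, 6.58% and 0.279% of genes. 31 of 34 estimates were higher in COMB, with a median of 0.42 beside -0.01 over all genes, and the 95% interval for Pgk1 was -0.04 to 1.71. In COMB against anti-PD-1, it was 0 by edgeR, 3 at an unadjusted p under 0.05 (Aldoc, Pfkm and Bnip3) and 0 by DESeq2, beside 0%, 7.23% and 0.375% of genes. A p that misses the threshold does not show that the groups are alike. These comparisons share libraries and are not independent of each other.

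The separation of libraries in COMB against OAT-1746 was mostly in 1 direction. 16 members had all COMB libraries above both OAT-1746 libraries (47.1%, beside 25.0% of genes) and 5 had all below (14.7%, beside 28.9%). The interaction, which asks whether the effect of OAT-1746 differed with the antibody, gave 0 members by edgeR beside 0.359% of genes, 16 at an unadjusted p under 0.05 (47.1%, beside 26.2%) and 5 by DESeq2 beside 8.40%. The test of any difference among the 4 groups gave 0 by edgeR beside 0.191%, 17 at an unadjusted p under 0.05 beside 27.7% and 13 by DESeq2 beside 17.0%. Without OAT-1746 replicate 1 the edgeR counts were 14 in the interaction and 12 among the 4 groups, beside 21.3% and 18.5% of all genes, and without COMB replicate 1 they were 2 and 2, beside 3.4% and 1.6%. Without both OAT-1746 replicate 2 and COMB replicate 1, a choice made after the values were seen and one that by construction removes spread within those groups, edgeR called 5 members in COMB against CTR, 10 in COMB against anti-PD-1, 17 in COMB against OAT-1746 and 13 in the interaction, beside 0.36%, 1.06%, 10% and 5.55% of all genes.

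Neighbouring pathways were described with lists of other genes. In COMB against OAT-1746 their median log2 fold changes were 0.20 for other glycolytic and glucose genes, 0.66 for the pentose phosphate pathway, 0.33 for pyruvate entry and the citrate cycle, -0.28 for HIF subunits and oxygen sensors and 0.00 for other HIF targets. In that comparison edgeR called 15.8% of all genes. Of 23 tested other glycolytic and glucose genes it called 5 (21.7%): Pgm1 and, of glycogen metabolism, Gys1 and Pygl were higher, and Slc16a7 and Eno2 were lower. Pygl, the glycogen phosphorylase of liver and myeloid cells, stood at 118 and 83.2 CPM in CTR, 58.8 and 25.4 in OAT-1746, 66.5 and 93.2 in anti-PD-1 and 88.2, 124 and 127 in COMB. Slc16a7, which was not part of the lactate transporter shares, stood at 40.3 and 46.1 CPM in CTR, 56.0 and 56.1 in OAT-1746, 28.9 and 33.0 in anti-PD-1 and 37.2, 30.2 and 33.5 in COMB (log2 fold change -0.74, edgeR adjusted p = 0.0238). Slc2a5, a fructose transporter and a known microglia gene, was not called (log2 fold change -0.88, edgeR adjusted p = 0.0527) and was highest in OAT-1746 replicate 2, at 740.0 CPM.

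Of 11 pentose phosphate genes, 2 were called (18.2%, beside 15.8% of all genes), Prps1 and Pgls, both higher in COMB. Of 30 genes of pyruvate entry and the citrate cycle, 9 were called (30%). Pdp2, a pyruvate dehydrogenase phosphatase, was lower (log2 fold change -1.16, edgeR adjusted p = 0.0160), and 8 were higher: Fh1, Idh3a, Suclg1, Sdhb, Sdhc, Sdhd, Pdk3 and Mpc2. Sdhb, of succinate dehydrogenase, stood at 113 and 113 CPM in CTR, 74.7 and 47.7 in OAT-1746, 105 and 103 in anti-PD-1 and 89.8, 146 and 132 in COMB (log2 fold change 1.00, edgeR adjusted p = 0.0340).

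Of 14 HIF subunits and oxygen sensors, 2 were called (14.3%, beside 15.8% of all genes): Elob, of the VHL ubiquitin ligase, was higher (log2 fold change 1.20, edgeR adjusted p = 0.0385), and Cited2, which competes with HIF for a coactivator, was lower (log2 fold change -1.36, edgeR adjusted p = 0.0192). Of 34 tested other HIF targets, 6 were called (17.6%), 5 higher, among them Higd1a, Fam162a, Hmox1 and Mif, and 1 lower. Mif, a cytokine, stood at 143 and 128 CPM in CTR, 99.2 and 50.4 in OAT-1746, 149 and 145 in anti-PD-1 and 117, 244 and 236 in COMB (log2 fold change 1.41, edgeR adjusted p = 0.0371). None of these genes was called against CTR by edgeR, beside 0% of all genes. In OAT-1746 against CTR, 20 of 30 citrate cycle genes, 6 of 11 pentose phosphate genes and 9 of 23 other glycolytic genes had an unadjusted edgeR p under 0.05. So did 4 of 14 HIF subunits and oxygen sensors and 11 of 34 other HIF targets, beside 32.3% of all genes.

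Cell-type and state markers also differed between these libraries, and their part in the results was not tested. The 11 microglia markers summed to 14750 and 23440 CPM in CTR, 31170 and 39010 in OAT-1746, 22230 and 18040 in anti-PD-1 and 27120, 20200 and 19070 in COMB. The 12 monocyte and macrophage markers, led by Tgfbi, summed to 13670 and 12660 CPM in CTR, 9623 and 1940 in OAT-1746, 12970 and 15090 in anti-PD-1 and 10250, 12940 and 13350 in COMB. OAT-1746 replicate 2 had the highest microglia sum, the lowest monocyte sum and the lowest enzyme sum, and COMB replicate 1 had a microglia sum above the other COMB libraries. In COMB against OAT-1746, edgeR called 2 of the 11 microglia markers (18.2%), both lower, and 0 of the 12 monocyte markers, beside 15.8% of all genes. All 11 microglia markers had lower estimates there, 10 of them at an unadjusted p under 0.05. Higher estimates were seen for 11 of the 12 monocyte markers, and 3 of the 12 were under 0.05, beside 37.1% of all genes. In OAT-1746 against CTR all 11 microglia markers had higher estimates at an unadjusted p under 0.05, beside 32.3% of all genes. All 12 monocyte markers had lower estimates in that comparison, 4 of them at an unadjusted p under 0.05. No marker gene of any list was at 0 in all libraries.

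The 9 immediate early genes, led by Junb, which respond to handling of cells as well as to signals, summed to 7999 and 7042 CPM in CTR, 11620 and 17950 in OAT-1746, 6530 and 9622 in anti-PD-1 and 3390, 3593 and 3758 in COMB. 8 of the 9 (88.9%) were called lower in COMB than in OAT-1746, beside 15.8% of all genes called. In the interaction 4 (44.4%) were called, beside 0.359% of all genes. The 6 proliferation genes, led by Top2a, summed to 93.7 and 91.4 CPM in CTR, 46.4 and 13.1 in OAT-1746, 37.4 and 69.9 in anti-PD-1 and 57.6, 57.0 and 62.2 in COMB. Mitochondrial transcripts were 2.46% and 2.26% of counts in OAT-1746 and 0.779% to 1.61% in the other libraries.

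The other marker lists summed to less than the microglia and monocyte lists. Lists for border-associated macrophages (led by F13a1) ran from 608.5 to 876.7 CPM, neutrophils (Csf3r) from 313 to 664, NK cells (Gzma) from 14.8 to 203, dendritic cells (Ccr7) from 62.6 to 125, T cells (Cd4) from 7.04 to 12.5 and B cells (Cd79b) from 10.5 to 25.4. Lists for neurons (Snap25) ran from 1.32 to 8.13 CPM, oligodendrocytes from 79.9 to 221, astrocytes (Slc1a2) from 24.3 to 67.9, endothelial cells (Flt1) from 120.3 to 183, erythroid cells (Hbb-bs) from 0.845 to 30.7 and glioma cells (Nes) from 11.8 to 23.5. In COMB against OAT-1746, edgeR called 1 border-associated macrophage and 1 glioma marker higher, 1 neutrophil and 2 neuron markers lower, and 1 astrocyte marker each way. Proliferation, NK, dendritic, T, B, oligodendrocyte, endothelial and erythroid markers had 0 called, beside 15.8% of all genes. All 7 NK, 6 proliferation and 6 dendritic markers had higher estimates there (medians 1.01, 0.95 and 0.25), and all 5 erythroid markers had lower ones (median -0.90). Of these, 3 NK and 3 proliferation markers had an unadjusted p under 0.05, beside 37.1% of all genes. In anti-PD-1 against CTR all 7 NK markers had higher estimates (median 2.38) at an unadjusted p under 0.05, beside 5.12% of all genes.

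**Figure D5:**
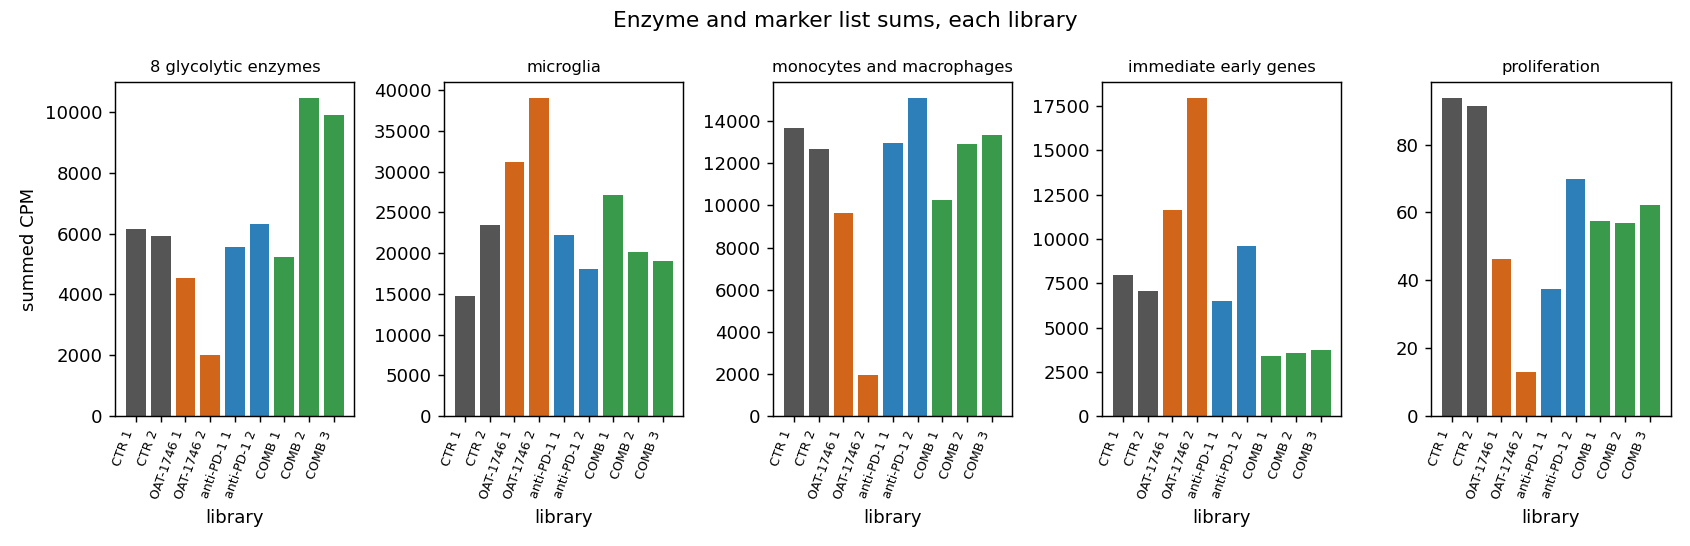
Bars are summed CPM in each library for 8 glycolytic enzymes and 4 marker lists, each panel with its own linear axis from 0. The enzyme sum is lowest, 2025 CPM, in OAT-1746 replicate 2, where the monocyte sum is also lowest, 1940 CPM, and the microglia sum highest, 39010 CPM.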

How the data were processed

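The authors used Trimmomatic 0.36 for trimming, STAR 2.6.1b for alignment (mm10) and Picard 2.17.1 for marking duplicates, and counted read pairs per gene with HTSeq-count 0.11.1, reverse stranded, keeping a mapping quality of 10 or more. The deposited values are raw counts for 53801 Ensembl genes in 9 libraries, of which 53620 matched the GENCODE vM21 annotation. The 21890 protein-coding genes were filtered with edgeR's filterByExpr (minimum count 10), which left 12538, scaled by TMM and fitted together with a mean per group by edgeR 4.0.16's quasi-likelihood method (R 4.3.3), with Benjamini-Hochberg adjustment over all tested genes and calls at 0.05. DESeq2 1.42.0 and limma 3.58.1 were alternatives, as were other scalings, filters, a replicate block and leaving out each library. CPM are TMM-scaled, and levels between genes are per kb of exon, counting all annotated exons of a gene. The transcripts in use can be shorter, so shares within a gene family depend on the annotation. Groups of 2 or 3 libraries give wide intervals. The study calls the libraries biological replicates.

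The members and the lists were chosen with earlier results of these data known. Values in every library are given for 8 fixed steps (Slc2a1, Hk2, Pfkp, Gapdh, Pkm, Ldha, Slc16a3 and Hif1a), for called members and for the 12 members with the smallest unadjusted p in the test of the 4 groups; from the other pathway lists, for a few with the smallest p or called. Some genes of these lists that the rule names are not reported here. 3 settings were changed after first results had been seen. The plan named edgeR's legacy method as an alternative, and the bias-adjusted method was run first. The legacy method, the default of this version, then replaced it, together with a change of annotation file. DESeq2's independent filtering was first set for 0.05 and then put back to the planned default. With the annotation used here, both settings of each tool called the same number of members in all 7 tests.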

Additional observations from a re-analysis of the deposited data

How the results depend on the processing

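Counts of called members depended on the tool and on single libraries. DESeq2 called 2 members in OAT-1746 against CTR, 21 in COMB against OAT-1746, 5 in the interaction and 13 among the 4 groups, and gave the same 4 counts with its filtering set for 0.05, a setting that was run first and is not the planned one. limma voom with sample weights called 20 in COMB against OAT-1746 and 4 among the 4 groups (beside 22.4% and 3.16% of all genes), and without the filter on low counts 18 were called in COMB against OAT-1746 and 1 among the 4 groups (beside 14.1% and 2.25%). At an adjusted p under 0.1, edgeR called 3 in OAT-1746 against CTR and 22 in COMB against OAT-1746 (beside 19.4% and 30.9%). The bias-adjusted and the legacy quasi-likelihood methods gave the same counts of members, 12 in COMB against OAT-1746 and 0 elsewhere. In COMB against OAT-1746 they called 17.1% and 15.8% of all genes. The legacy method, planned as an alternative, is the one reported. The bias-adjusted one, run first, was added to the alternatives after the data were seen. With OAT-1746 replicate 2 and COMB replicate 1 both left out, also added after the data were seen, 5, 10, 17, 13 and 13 members were called in COMB against CTR, in COMB against anti-PD-1, in COMB against OAT-1746, in the interaction and among the 4 groups, beside 0.36%, 1.06%, 10%, 5.55% and 1.84% of all genes. With 1 library left out, the median log2 fold change ran from -0.53 to -0.052 in OAT-1746 against CTR and from 0.603 to 1.053 in COMB against OAT-1746, where the fold of Pfkp ran from 0.809 to 2.971 and that of Pfkl from 0.635 to 0.883. The cause of these differences was not tested.

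Leaving out 1 library at a time, the count ran from 0 to 16 in OAT-1746 against CTR, 0 to 21 in COMB against OAT-1746, 0 to 14 in the interaction and 0 to 12 among the 4 groups, and was 0 throughout in the other 3 comparisons. Leaving out a library leaves 1 in groups of 2, and that library is assumed to vary like the others. In OAT-1746 against CTR, without OAT-1746 replicate 2 the log2 fold changes of Aldoc and Hif1a turned to 0.038 and 0.027 (without OAT-1746 replicate 1 they were -0.589 and -0.633), and with COMB replicate 1 also left out they were 0.037 and 0.026.

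With the replicate number as a block, 0 members were called in COMB against OAT-1746, beside 0.016% of all genes (2 genes), and 0 in the other 6 tests, beside 0%. The labels do not say whether the numbers mark a pairing or a batch. Same-numbered libraries had correlations of deviations from the group means of -0.35 to 0.10. In groups of 2 the deviations mirror each other, so these correlations cannot show whether the numbers pair the libraries. The block also removes degrees of freedom, and which of these lowered the count was not tested.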
